A study of Mus musculus with 6 samples.

Results

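The enzymes that break down amino acids and turn their nitrogen into urea were examined in livers of mice that lack selenoprotein O (SelO, gene Selenoo) in the liver. The set held 42 named genes, of which 41 were found by symbol among the 16140 genes of the deposited table, and all 41 had enough counts to be tested, along with 12173 genes in all. Tdh, a threonine dehydrogenase gene, was not analysed here. Bulk poly(A)-selected RNA of 3 control livers (genotype Selofl/fl, treatment none) and 3 knockout livers (Selofl/fl Alb-Cre) was sequenced. All 6 libraries came from livers with floxed Selenoo alleles, and the series title places the mice on a normal diet. Alb-Cre expresses Cre recombinase from the albumin promoter, which is active in hepatocytes. The controls carried no Cre, so that an effect of Cre and an effect of losing Selenoo cannot be told apart. The labels give neither age nor sex and do not state that each library came from a separate mouse, and p-values therefore speak only of the spread among these libraries, which may be technical.

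Hepatocytes strip the amino group from amino acids by transamination, oxidise the carbon skeletons, and pass the nitrogen as ammonia and aspartate into the urea cycle, most strongly in the periportal part of the lobule. Several of these enzymes are made in larger amounts in fasting, when glucagon and glucocorticoids favour the use of amino acids for glucose. SelO is a mitochondrial selenoprotein, and many of these enzymes act in mitochondria.

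Totals of estimated counts ran from 15550289 to 18680195 per library. Levels are given as CPM, counts scaled to library size, where genes are compared between livers, and as FPKM, which also corrects for transcript length, where genes are compared with each other. Selenoo stood at 91.7 ± 6.50 CPM (SD, n = 3) in control and 7.76 ± 1.52 in knockout livers, which matches the labels. Summed hepatocyte markers overlapped between the groups, at 132224 to 174090 CPM in controls and 144379 to 169423 in knockouts, with 0 of 6 past the threshold. Markers of kidney tubule were close to 0, at 0.0671 to 0.971 CPM summed over 4 genes in any library. Control replicate 3 stood apart by transcripts of exocrine pancreas: Ctrb1, Pnlip, Cpa1 and Prss2 had 84, 41, 21 and 12 counts there and 0 in each of the other 5 libraries. Without control replicate 3, 668 of all genes passed in place of 181, and the calls among the amino acid genes stayed at 2, with Tat at 1.29 (log2, adjusted p of 0.0213 in edgeR) and Acmsd at 1.32 (0.0177).

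Of the 41 genes, 2 were higher and 0 were lower in knockout livers at an adjusted p under 0.05 in edgeR's quasi-likelihood test. Among all genes tested, 1.49% passed, 0.772% as higher and 0.715% as lower. The 2 were Tat, the first enzyme of tyrosine breakdown, and Acmsd, an enzyme of tryptophan breakdown at a branch point towards NAD synthesis. Their fitted rises were 2.80-fold and 2.17-fold. The call count depended on single libraries: 1 of the 41 passed without control replicate 2, and 0 passed when any 1 of the 3 knockout libraries was left out. The count over all genes fell as well. It went from 181 to 77 without control replicate 2, and to 59, 43 and 60 without knockout replicates 1, 2 and 3. The authors' deposited table lists 2 higher and 1 lower of the 41 at a q under 0.05, where 3.47% of its genes pass (2.03% higher and 1.44% lower). The lower gene there was Agxt, and a DESeq2 Wald test on the same counts also called these 3. Of its 12057 genes with an adjusted p 5.26% passed, 3.08% higher and 2.18% lower.

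None of the other 39 genes passed in edgeR, and 8 of the 41, Tat and Acmsd included, had an unadjusted p under 0.05 where 18.5% of all genes did. A 95% interval of the fold change, not adjusted for the number of genes, stayed within a 2-fold change in either direction for 38 of the 41, the exceptions being Tat, Acmsd and Csad, and within a 1.5-fold change for 21. Over all tested genes these shares were 78.8% and 41.3%. Fold changes were positive for 30 of the 41 and negative for 11, against 47.8% positive over all genes. The median log2 fold change of the 41 was 0.12, against -0.018 over all genes. Dropping control replicate 2 gave 0.0547, and dropping knockout replicates 1, 2 and 3 gave 0.201, 0.0786 and 0.0487. The groups did not overlap for 9 of the 41, with 6 higher and 3 lower in knockout livers. Of all tested genes 25.2% had groups that did not overlap, 13.3% higher and 11.9% lower.

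**Figure D1:**
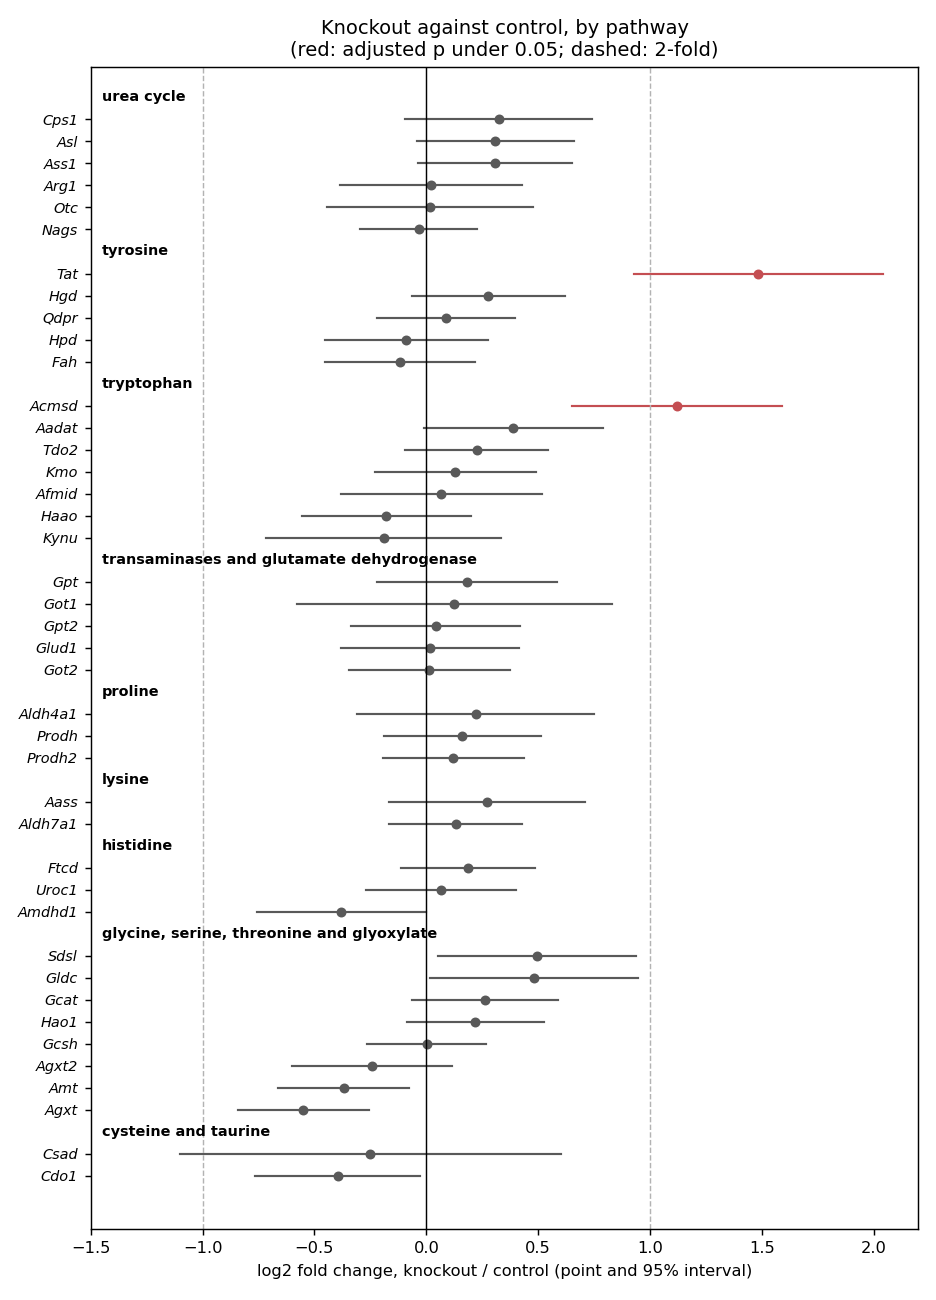
Log2 fold change (knockout over control) of the 41 genes, grouped by pathway on the vertical axis, with its 95% interval. Dashed lines mark a 2-fold change; the intervals of Tat, Acmsd and Csad cross one, and those of the other 38 lie between them.

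The promoter sequence of Tat is given here because Tat had the largest fold change of the 41 genes. It is the RefSeq window of 300 bases (GRCm38.p6, plus strand) from 250 bases before to 50 bases from the annotated start. Capitals mark exact matches, on either strand, to 5 short motifs: TGACG (the core of the cAMP response element), CCAAT (the CCAAT box), GTAAACA (forkhead core), GTTAAT (part of the HNF1 site) and TGTTCT (part of the glucocorticoid receptor site). The window lies at chr8:109990186-109990485.
Tat: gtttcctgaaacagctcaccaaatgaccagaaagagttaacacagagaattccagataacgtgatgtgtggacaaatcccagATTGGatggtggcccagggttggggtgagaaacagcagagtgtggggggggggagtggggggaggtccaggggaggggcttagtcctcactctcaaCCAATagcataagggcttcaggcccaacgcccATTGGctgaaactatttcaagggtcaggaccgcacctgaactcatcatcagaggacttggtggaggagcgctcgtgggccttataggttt
The Tat window held 3 CCAAT boxes, starting at positions -168, -72 and -40 from the start, and no match to the other 4 motifs. Such a match is not rare: 37.4% of all 32851 RefSeq windows held a CCAAT box and 20.8% the cAMP element core. Of the 42 genes 33 had such windows, 35 in all, and of these 40% held a CCAAT box and 17.1% that core. The Tat start used by RefSeq lies 4384 bases inside the gene's span in the deposited table. Sequence outside the windows, such as distant enhancers, was not searched.

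The urea cycle genes were abundant and none of the 6 passed the threshold. In FPKM, Ass1, which joins citrulline and aspartate, led with 2809 ± 211 (SD, n = 3) in controls and 3353 ± 206 in knockouts. Arg1, which releases urea from arginine, followed at 1325 ± 200 and 1305 ± 121. Cps1, which makes carbamoyl phosphate from ammonia and is rate-limiting, stood at 444 ± 110 and 530 ± 20.9, next to Asl, which splits argininosuccinate, at 438 ± 41.2 and 523 ± 40.6; the spread of Cps1 and Asl overlapped. Otc, which forms citrulline, was lower at 175 ± 36.9 and 171 ± 21.4. Nags, which makes the activator of Cps1, was lowest at 36.2 ± 2.27 and 34.1 ± 2.41.

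In CPM, Ass1 measured 3898, 3441 and 4078 for controls and 4266, 4968 and 4889 for knockouts. All 3 knockout values lay above the controls, by a margin smaller than the spread within either group. Ass1 had a log2 fold change of 0.31 ± 0.15 (SE) that did not pass (edgeR-adjusted p of 0.315). Asl had the same size of change, 0.31 ± 0.16 (adjusted p of 0.327 in edgeR), with 679, 532 and 664 CPM against 688, 797 and 836. The groups of Asl did not overlap either, although the nearest values, 679 and 688, were almost equal. Cps1 was at 1913, 2044 and 2906 CPM in controls and at 2658, 2939 and 2987 in knockouts. Control replicate 3 of Cps1 lay among the knockouts, and the fold change was 0.32 ± 0.19 (log2, SE). Arg1, Otc and Nags had log2 fold changes of 0.02, 0.02 and -0.03, and the signs of Arg1 and Otc turned negative under upper-quartile scaling, at -0.0192 and -0.0256. Nags was the steadiest, at 65.9 to 66.7 CPM in controls and 60.9 to 67.7 in knockouts. The intervals of all 6 stayed within a 2-fold change.

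**Figure D2:**
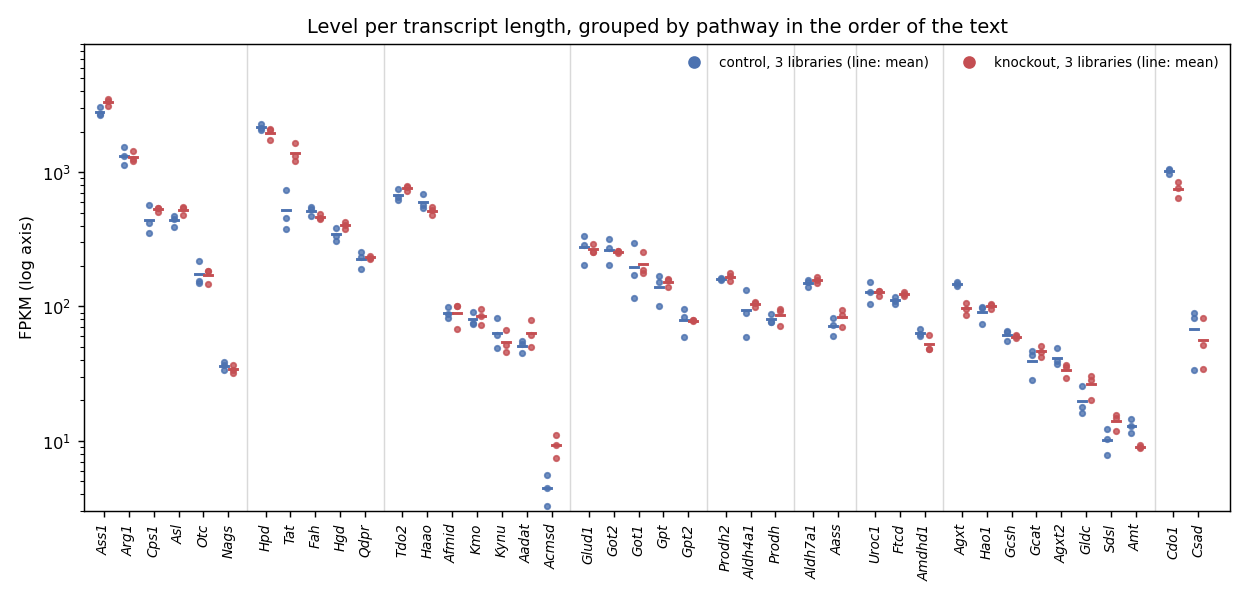
FPKM of the 41 genes in each library on a log axis, with the mean of 3 control (blue) and 3 knockout (red) libraries as a line; pathways are separated by grey lines. Levels run from Ass1 at a mean of 3081 FPKM over all 6 libraries down to Acmsd at 6.84.

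Tyrosine breakdown held the largest fold change of the 41 genes, and 1 of its 5 genes passed. Tat (Entrez 234724, GRCm38 plus strand, chromosome 8, 109986052 to 109999804) encodes tyrosine aminotransferase, which removes the amino group of tyrosine and has long served as the model of a glucocorticoid- and glucagon-induced liver gene. Tat measured 1004, 1466 and 771 CPM in controls and 2780, 2623 and 3666 in knockouts. The lowest knockout value was well above the highest control. Tat rose by 1.48 ± 0.25 (log2, SE; 95% interval 0.93 to 2.04) and passed the test at an edgeR-adjusted p of 0.0241. The fold change was similar without any single library, at 1.29 to 1.77, but the adjusted p in edgeR was 0.0794, 0.0739 and 0.0971 without knockout replicates 1, 2 and 3.

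None of the enzymes after Tat passed the threshold. Hpd, which converts the keto acid made by Tat, was the most abundant of the pathway per length at 2161 ± 121 FPKM in controls. It measured 2761, 2277 and 2294 CPM in controls and 1972, 2414 and 2502 in knockouts, and these ranges overlapped (-0.09 ± 0.16, log2 and SE). Hgd, which opens the ring of homogentisate, was at 0.28 ± 0.15. Fah, the last enzyme of the path, was at -0.12 ± 0.15, and Qdpr, which regenerates tetrahydrobiopterin, at 0.09 ± 0.14. In FPKM Tat stood at 522 ± 192 in controls, beside Fah at 517 ± 41.4, and at 1393 ± 232 in knockouts, nearer to Hpd at 1964 ± 198. Of 5 other genes of phenylalanine and tyrosine use, 0 passed the threshold. Gch1, of tetrahydrobiopterin synthesis, was at 0.45 ± 0.18 (log2, SE).

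**Figure D3:**
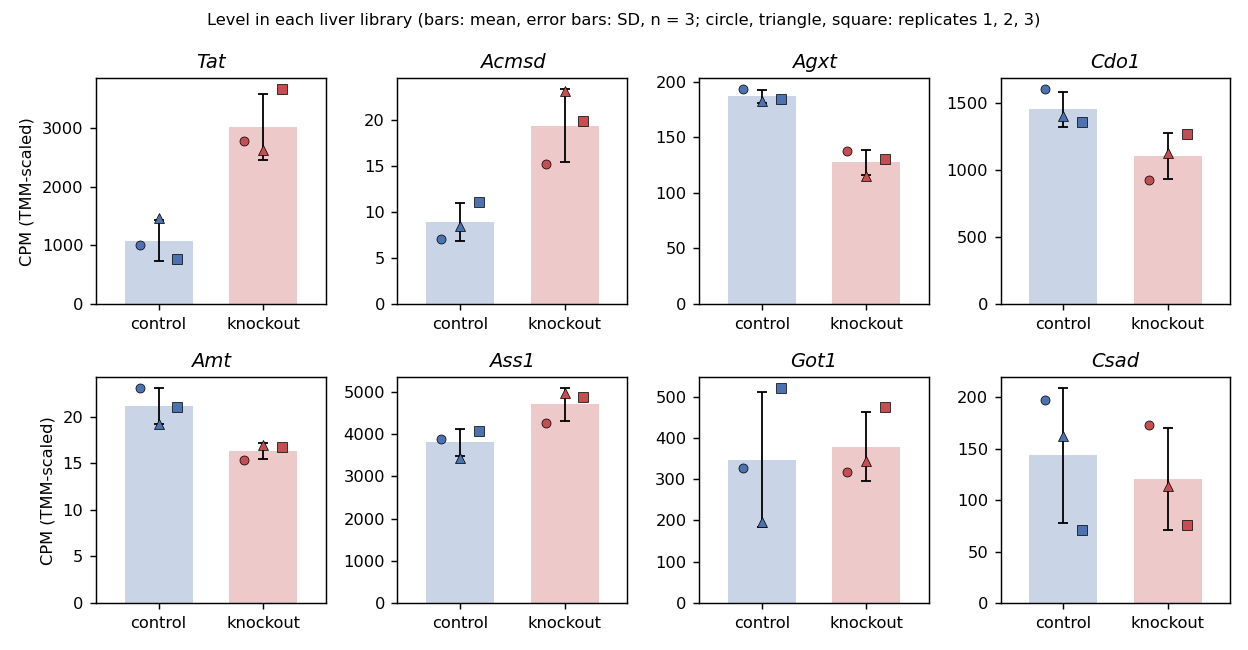
CPM of 8 genes in each library (points), with bars at the mean and error bars of 1 SD (n = 3) for control (blue) and knockout (red) livers; vertical axes start at 0. Knockout points of Tat, Acmsd and Ass1 lie above all controls, those of Agxt, Cdo1 and Amt below all controls, and Got1 and Csad overlap.

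Of the 7 tryptophan genes, 1 passed. Acmsd (Entrez 266645, chromosome 1, 127729413 to 127767564, plus strand) encodes the decarboxylase that takes an intermediate of the kynurenine path away from quinolinate and NAD and towards full oxidation. Acmsd was the least abundant of the 41 genes in controls, at 4.43 ± 1.15 FPKM in controls and 9.26 ± 1.76 in knockouts, where Amt was lower at 8.98 ± 0.249 FPKM. Its counts were 105, 164 and 214 in controls and 283, 404 and 349 in knockouts, or 7.05, 8.47 and 11.1 against 15.2, 23.1 and 19.8 CPM. Every knockout library exceeded every control. Acmsd rose by 1.12 ± 0.21 (log2, SE; 95% interval 0.65 to 1.59) and passed the test at an edgeR-adjusted p of 0.037. Dropping control replicate 2 moved the edgeR-adjusted p to 0.131, and dropping knockout replicates 1, 2 and 3 moved it to 0.0584, 0.17 and 0.125. It was 0.0688 and 0.0664 in limma on log2(FPKM + 1) and log2(FPKM + 0.1).

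None of the steps that feed Acmsd passed the threshold. Tdo2, the dioxygenase that opens the indole ring, was the most abundant of the path at 673 ± 65.7 FPKM in controls and 757 ± 33.6 in knockouts. It measured 941, 964 and 833 CPM in controls and 984, 1088 and 1127 in knockouts, groups that did not overlap, with a log2 fold change of 0.22 ± 0.14 and an adjusted p of 0.419 in edgeR. Haao, which makes the substrate of Acmsd, was next per length (602 ± 76.7 FPKM in controls) and had a log2 fold change of -0.18 ± 0.17. Afmid, the formamidase, Kmo, the kynurenine hydroxylase, and Kynu, the kynureninase, were at 0.07 ± 0.20, 0.13 ± 0.16 and -0.19 ± 0.23. Afmid shares 83 exon bases with Tk1 on the opposite strand and 1566 with the gene model Gm20708, and whether the counting used strand is not given in the sources used here. Kynu and Kmo are also known in macrophages. Of 10 Kupffer cell and macrophage markers 0 passed, with a median log2 fold change of -0.26. The summed level of these markers was 491 to 699 CPM in controls and 453 to 518 in knockouts. Their part in the levels of Kynu and Kmo was not tested.

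A side branch of the same path turns kynurenine into kynurenic acid by transamination. Aadat, which also acts on lysine's product aminoadipate, measured 73.5, 83.0 and 81.8 CPM in controls and 79.7, 129 and 104 in knockouts, with knockout replicate 1 inside the control range. Its log2 fold change was 0.39 ± 0.18 (adjusted p of 0.281 in edgeR). Kyat3, another kynurenine aminotransferase outside the 41, was at 86.3, 101 and 117 CPM against 188, 211 and 147. Its groups did not overlap, and its log2 difference of 0.84 ± 0.18 had an adjusted p of 0.0541 in edgeR. That p was 0.0254 without control replicate 3 and 0.0579 to 0.221 without any other single library. It was 0.0309 without the low-count filter and 0.0356 with the length and GC trend removed. DESeq2's Wald test gave Kyat3 an adjusted p of 0.000577, and the authors' deposited table a q of 0.000777. Kyat1 was at 0.18 ± 0.12, and Qprt, which uses quinolinate for NAD, at 0.24 ± 0.20.

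Transaminases and glutamate dehydrogenase, which collect amino groups on glutamate and release ammonia, gave 0 calls among 5, and the intervals of all 5 stayed within a 2-fold change. Glud1, the mitochondrial glutamate dehydrogenase, measured 613, 782 and 948 CPM in controls and 842, 760 and 771 in knockouts. The knockouts lay inside the control range. The same held for Got2, the mitochondrial aspartate transaminase (454, 541 and 655 against 550, 562 and 554 CPM), and for Gpt2, the mitochondrial alanine transaminase (291, 371 and 442 against 369, 377 and 390). Log2 fold changes of Glud1, Got2 and Gpt2 were 0.02, 0.01 and 0.04, and the first 2 turned to -0.0204 and -0.0246 under upper-quartile scaling. Gpt, the cytosolic alanine transaminase, was at 0.18 ± 0.18. Got1, the cytosolic aspartate transaminase, differed more between livers than any other of these 5. Got1 measured 326, 195 and 520 CPM in controls, a 2.66-fold range, and 318, 344 and 475 in knockouts, with a 95% interval of -0.58 to 0.83 for its log2 fold change. Per length the order in controls was Glud1 (276 ± 68.3 FPKM), Got2 (264 ± 57.0), Got1 (195 ± 92.8), Gpt (140 ± 35.6) and Gpt2 (79.6 ± 19.1), and the first 3 did not differ beyond their spread.

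Proline, lysine and histidine genes gave 0 calls among 8. Prodh2, the hydroxyproline dehydrogenase gene and the most abundant of the proline group, measured 202, 174 and 177 CPM in controls and 178, 206 and 217 in knockouts (0.12 ± 0.14, log2 and SE). Prodh, the proline dehydrogenase gene, was at 0.16 ± 0.16. Aldh4a1, which completes the conversion to glutamate, was at 190, 259 and 394 CPM in controls and 324, 339 and 319 in knockouts. Controls of Aldh4a1 spread 2.08-fold and the knockouts 1.06-fold. Aldh7a1, which oxidises the semialdehyde from lysine, measured 390, 379 and 407 CPM against 395, 455 and 438, and Aass, the first lysine enzyme of the liver, was at 0.27 ± 0.19. Aldh7a1 shares 300 exon bases with Phax on the opposite strand.

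In histidine breakdown, Uroc1, which hydrates urocanate, measured 338, 366 and 438 CPM in controls and 367, 409 and 420 in knockouts, inside the control range. Amdhd1, which acts next, was at 134, 109 and 95.4 CPM against 76.0, 100 and 84.0, with a log2 fold change of -0.38 ± 0.17 and an adjusted p of 0.268 in edgeR. Knockout replicate 2 of Amdhd1 lay inside the control range. Ftcd, which passes the last fragment to folate, was at 0.19 ± 0.13. Hal, the first enzyme of the path and outside the 41, was at 0.27 ± 0.16.

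The 8 genes of glycine, serine, threonine and glyoxylate moved in no single direction, with 0 past the threshold and 5 positive and 3 negative fold changes. At an unadjusted p under 0.05 in edgeR, 2 were higher (Gldc and Sdsl) and 2 lower (Agxt and Amt), where 9.27% of all tested genes were higher and 9.26% lower. Agxt, which detoxifies glyoxylate by turning it into glycine, was the most abundant of the 8 at 146 ± 4.44 FPKM in controls and 96.6 ± 9.97 in knockouts. Agxt measured 193, 183 and 184 CPM in controls and 137, 115 and 130 in knockouts. The controls lay close together and all knockouts lay below them, with a level of 68.3% of control. Its log2 fold change was -0.55 ± 0.13 (95% interval -0.84 to -0.26), with an adjusted p of 0.0728 in edgeR and of 0.00271 in DESeq2's Wald test. In the authors' deposited table Agxt has a log2 fold change of -0.547 and a q of 0.00374. Hao1, the peroxisomal oxidase that makes glyoxylate from glycolate, measured 138, 165 and 167 CPM in controls and 183, 173 and 191 in knockouts, with a log2 fold change of 0.22 ± 0.14 and an adjusted p of 0.414 in edgeR. Agxt2, a mitochondrial aminotransferase of glyoxylate, was at -0.24 ± 0.16.

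Within the mitochondrial glycine cleavage system the 3 measured subunits had different values. Gldc, the glycine decarboxylase, measured 65.9, 83.6 and 54.8 CPM in controls and 70.9, 111 and 104 in knockouts, and knockout replicate 1 lay inside the control range (0.48 ± 0.21, log2 and SE). Amt, the aminomethyltransferase, measured 23.1, 19.2 and 21.1 CPM against 15.3, 17.0 and 16.7, with all knockouts below the controls. Its log2 fold change of -0.37 ± 0.13 had an adjusted p of 0.18 in edgeR. Gcsh, the carrier protein, was at 57.5 to 63.7 CPM in controls and 57.0 to 62.2 in knockouts (0.0020 ± 0.12, and -0.0379 under upper-quartile scaling). Sdsl, which is related to serine dehydratase, was at 13.4, 10.3 and 8.09 CPM against 16.1, 15.8 and 12.7 (0.49 ± 0.20), and Gcat, of threonine breakdown, at 0.26 ± 0.14. Gcat shares 363 exon bases with Galr3.

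Both genes of cysteine oxidation to taurine had negative fold changes, and neither passed. Cdo1, the cysteine dioxygenase that commits cysteine to this path, was among the abundant genes at 1022 ± 46.2 FPKM in controls and 750 ± 98.0 in knockouts. Cdo1 measured 1607, 1404 and 1364 CPM in controls and 928, 1128 and 1271 in knockouts, with all knockouts below the controls. The log2 fold change was -0.40 ± 0.16 (95% interval -0.76 to -0.03), with an adjusted p of 0.238 in edgeR. Csad, which decarboxylates the product of Cdo1, was the most variable of the 41 genes, at 197, 163 and 70.7 CPM in controls and 173, 114 and 75.4 in knockouts. These ranges overlapped almost entirely, and its interval of -1.10 to 0.60 was the widest. Of 6 other genes of cysteine and sulfide oxidation 0 passed; Ethe1, a mitochondrial sulfur dioxygenase, was at 54.5, 38.0 and 26.8 CPM against 21.9, 24.4 and 20.8 (-0.83 ± 0.23, adjusted p of 0.106 in edgeR). Without control replicate 3 that p was 0.0183, and without any other single library it was 0.118 to 0.301. DESeq2's Wald test gave Ethe1 an adjusted p of 0.0224, and the authors' deposited table a q of 0.0293. Sqor, of sulfide oxidation, was at 0.23 ± 0.15.

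Within the knockout group, replicate 1 differed from the other 2. The median deviation of the 41 genes from the control mean, on the log2 CPM scale, was 0.021, -0.048 and 0.036 for controls and 0.012, 0.146 and 0.219 for knockouts. Knockout replicate 1 lay inside the control range, while replicates 2 and 3 lay above it. The urea cycle medians were 0.083, -0.140 and 0.045 in controls and 0.090, 0.251 and 0.292 in knockouts. For transaminases and glutamate dehydrogenase the controls alone ran from -0.315 to 0.284, and the knockouts fell between them. Across all tested genes, the deviation of a library also followed transcript length, with Spearman's rho across genes of -0.29 and -0.22 in control replicates 1 and 2 and 0.27 in both control replicate 3 and knockout replicate 1. Genes are not independent replicates in that measure. With each library's trend on length and GC content removed, Tat and Acmsd still passed in edgeR (adjusted p of 0.0191 and 0.0307), and Agxt was at -0.443 (0.0915).

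**Figure D4:**
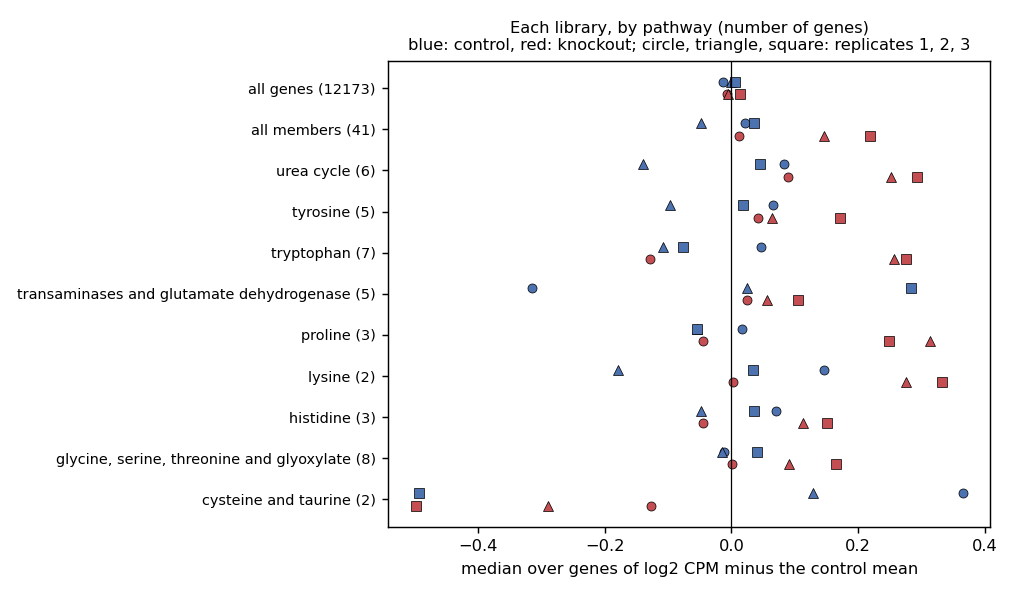
Median deviation of log2 CPM from the control mean for each library, by pathway, beside all tested genes; the number of genes is in brackets. Knockout replicates 2 and 3 (red triangle and square) lie to the right of all controls (blue) for 6 groups (urea cycle, tryptophan, proline, lysine, histidine and the glycine group); knockout replicate 1 (red circle) lies just right of them for the urea cycle and not for the others of these groups.

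Transporters, ammonia handling and regulators were read from 67 other genes of amino acid metabolism, of which 65 were tested. Of these, 2 were higher and 0 were lower at the threshold, against 0.772% and 0.715% of all genes, and their median log2 fold change was 0.13. Slc7a2, the liver's transporter of arginine, lysine and ornithine, measured 189, 219 and 211 CPM in controls and 492, 364 and 413 in knockouts. All knockouts were above all controls. Slc7a2 rose by 1.04 ± 0.16 (log2, SE; adjusted p of 0.0156 in edgeR). Its edgeR-adjusted p became 0.0509 on dropping control replicate 2, and 0.0694 and 0.0716 on dropping knockout replicates 1 and 3. Ppargc1a, a coactivator of fasting genes, rose from 4.36, 4.34 and 5.50 CPM to 9.83, 10.7 and 11.7, by 1.18 ± 0.16 (adjusted p of 0.0131 in edgeR). That of Ppargc1a became 0.0509 on dropping control replicate 2, and 0.0623 and 0.0582 on dropping knockout replicates 2 and 3. Over these genes (65 or 66 tested) dropping control replicates 1, 2 and 3 gave counts of 3, 0 and 8. Dropping knockout replicates 1, 2 and 3 gave 1, 1 and 0. Over all genes the same fits, in the same order, called 361, 77, 668, 59, 43 and 60, in place of 181.

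The other genes of these lists did not pass in the same edgeR test. DESeq2's Wald test called 11 of the 67 genes, 8 higher and 3 lower. Of the 12057 genes with an adjusted p in that test 5.26% passed, 3.08% higher and 2.18% lower. The bases differ, since the 67 count every listed gene found, with or without an adjusted p. Slc43a1, a transporter of large neutral amino acids, was at 16.8, 17.7 and 19.3 CPM in controls and 6.45, 9.31 and 12.6 in knockouts (-0.93 ± 0.22, adjusted p of 0.0724, and 0.0458 without the low-count filter). Cebpb, a transcription factor of liver metabolic genes, was at 245, 292 and 207 CPM against 425, 399 and 337 (0.64 ± 0.17, adjusted p of 0.0957, and 0.0358 with the length and GC trend removed). Klf15, a known activator of amino acid catabolic genes, and Nr3c1, the glucocorticoid receptor gene, were at 0.17 ± 0.19 and 0.10 ± 0.14. Slc25a13, the mitochondrial aspartate-glutamate carrier that supplies aspartate to Ass1, was at 0.55 ± 0.17 (adjusted p of 0.135 in edgeR, with 0.0235 without control replicate 3 and 0.179 to 0.371 without any other single library). Glul, the glutamine synthetase of pericentral cells, was at 483, 596 and 879 CPM in controls and 644, 680 and 642 in knockouts, with a log2 fold change of 0.0057 ± 0.21. Rhbg, a pericentral ammonia transporter, was at 0.75 ± 0.25 (adjusted p of 0.158 in edgeR). Etnppl, a phospholyase related to Agxt2, was at 75.2, 68.2 and 41.0 CPM against 105, 125 and 121 (0.93 ± 0.21, adjusted p of 0.0662 in edgeR). Its edgeR-adjusted p was 0.0308 without control replicate 1, 0.0283 without control replicate 3, 0.158 to 0.240 without any other single library, and 0.0355 without the low-count filter. DESeq2's Wald test gave Slc43a1, Cebpb, Slc25a13 and Etnppl adjusted p-values of 0.00585, 0.00891, 0.0447 and 0.00164. The authors' deposited table gives them q-values of 0.00767, 0.012, 0.0597 and 0.00218. Sardh, of sarcosine breakdown, was at 0.31 ± 0.17.

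Of 10 periportal markers outside the 41, 3 were higher at the threshold (Cdh1, Pck1 and G6pc), where 0.772% of all genes were, and 7 did not pass. Those 7 were Fbp1 at 0.69 ± 0.21 (log2, SE), Cyp2f2 at 0.66 ± 0.28, Hsd17b13 at 0.32 ± 0.15, Hal at 0.27 ± 0.16, Aldh1b1 at 0.26 ± 0.19, Sds at 0.13 ± 0.20 and Apof at -0.15 ± 0.14. The median log2 fold change of the 10 was 0.49. The summed level of the 10 was 5805 to 6225 CPM in controls and 8898 to 9660 in knockouts, of which Pck1 made up 2429 to 2834 and 4260 to 4654. Pck1, Cdh1, Fbp1 and G6pc each had groups that did not overlap, and the other periportal markers overlapped. Of all tested genes 25.2% had groups that did not overlap. Of 10 pericentral markers 0 passed, and their sum overlapped, at 9064 to 10958 CPM in controls and 10243 to 11781 in knockouts. Markers of lymphocytes and endothelium were also compared. The 8 T and NK cell markers summed to 8.59 to 13.7 CPM in controls and 4.09 to 7.09 in knockouts, with 0 of the 6 tested past the threshold and a median log2 fold change of -1.501. The 5 B cell markers summed to 11.05 to 22.8 CPM and 5.23 to 7.41, with 1 of the 4 tested lower (Jchain) and a median of -0.90. Of 6 endothelial markers 1 was lower (Lyve1), with sums of 255 to 269 CPM and 211 to 258; 0.715% of all genes were lower. The part of other cell types and of zonal composition in the values of the urea cycle genes and of Tat was not tested. In bulk tissue a change in the share of cells and a change in RNA per cell cannot be told apart.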

How the data were processed

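Per the labels' protocols, liver RNA was extracted with TRIzol, enriched on oligo(dT) beads, fragmented and primed with random hexamers, with PCR at the end. HISAT2, Bowtie2, RSEM 1.3.1 and the build GRCm38 are named, per the submitters' processing notes. Not given in the sources used here are trimming, read filters and strandedness. The authors deposited estimated counts, FPKM and TPM per gene and library, per the file headers, with group means and a DESeq2 comparison giving log2 fold changes, p-values and q-values. Columns named wild type were matched to the floxed controls by group and number.

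Estimated counts (4.70% to 5.12% per library were not whole, with no tolerance) were rounded, filtered with filterByExpr, scaled with TMM and tested with edgeR 4.0.16 (quasi-likelihood F test, R 4.3.3). The model held genotype alone, and p-values were adjusted over all tested genes (Benjamini-Hochberg, 0.05). Standard errors and intervals came from the F statistic and its degrees of freedom. CPM used the TMM factors; deviations used log2 CPM with a prior count of 2. The limit set by a zero count (3 counts) lay at 0.161 to 0.193 CPM on the library totals, without the TMM factors that the other CPM values use. Without molecular identifiers this limit reflects counting error alone. All library pairs differed by more than sampling noise, with chi-square at least 18.9 times its degrees of freedom. Tested on simulated data with the real means, sizes and dispersions and 12071 genes, the knockout against control fit called 69.4% of the genes changed by 1 on the log2 scale and 99.0% of those changed by 2; 4.60% of calls were false.

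The members, pathway groups and lists were chosen with earlier results of these data known. Values per library are printed for members with an adjusted p under 0.05, or an unadjusted p under 0.05 and groups that do not overlap, and for the most abundant member of each pathway. Of the other pathway genes, they are printed for those past the threshold and for some of those with the smallest p in each list. Gch1, Hal, Sardh, Sqor, Rhbg and Slc25a13, also chosen by smallest p, are given by log2 fold change without library values. Values of other members and of Kyat1, Qprt, Klf15, Nr3c1 and Glul were added after they were seen. Exon overlaps came from GENCODE M21 (GRCm38). Alternatives were DESeq2 1.42.0, limma 3.58.1 on voom values and on log2(FPKM + 1) and log2(FPKM + 0.1), other scalings, filters and thresholds, the replicate number as a block, removal of the length and GC trend (lengths found for 98.1% of genes) and each library left out. Some items are not reported here.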

Additional observations from a re-analysis of the deposited data

How the results depend on the processing

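Of the 41 genes, 2 passed with limma-voom, with either other scaling (upper quartile or DESeq2 size factors), without the low-count filter, at 1 CPM in 3 libraries, removal of the length and GC trend and a minimum 1.5-fold change, and 3 with DESeq2's Wald test or an adjusted p of 0.1. Only 1 passed with limma on log2(FPKM + 1) or log2(FPKM + 0.1) (Tat) and with the replicate number as a block (Acmsd; Tat at 1.52 with an adjusted p of 0.0748 in edgeR, and Slc7a2 of the other genes at 1.03 with 0.0748). Leaving out single libraries gave 0 to 2 (0 without any 1 knockout library). Of the 65 other pathway genes 2 passed. Without the low-count filter 5 of 67 did, without the length and GC trend 5, and with DESeq2 11 of 67. Under the replicate block 1 passed, and 0 to 8 did without single libraries. Of all genes, where 181 passed, 330 did without the filter, 634 with DESeq2, 110 with log2(FPKM + 1), 312 without the length and GC trend, 513 at an adjusted p of 0.1, 87 under the replicate block and 43 to 668 without single libraries (361, 77 and 668 without control replicates 1, 2 and 3, and 59, 43 and 60 without knockout replicates 1, 2 and 3). The cause of these differences was not tested.

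No pairing of the samples by replicate number was seen. Deviations from the group means correlated across genes at -0.16, -0.079 and -0.076 for the 3 same-numbered pairs, and no library correlated best with its own number. With 3 libraries per group such correlations cannot exclude a pairing. The median of the 41 genes ran from 0.0487 to 0.201 without single libraries and from 0.0595 to 0.128 under the other settings.

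Some signs changed, none of them of a gene past the threshold. Otc, Arg1, Got2, Glud1 and Gcsh were at -0.0256, -0.0192, -0.0246, -0.0204 and -0.0379 with upper-quartile scaling. With log2(FPKM + 1) these were -0.0140, -0.0152, -0.0237, -0.0153 and -0.0453 and Afmid -0.00996. With log2(FPKM + 0.1) they were -0.0141, -0.0152, -0.0237, -0.0153 and -0.0459 and Afmid -0.0103. Gcsh was -0.00054 with DESeq2 size factors and -0.0024 with the CPM filter, and Nags, Hpd and Glud1 were 0.0400, 0.0157 and -0.00472 without the length and GC trend. Without single libraries Otc ran from -0.0939 to 0.259, Arg1 from -0.0872 to 0.196, Nags from -0.068 to 0.00828, Hpd from -0.155 to 0.0103, Kynu from -0.377 to 0.0924, Afmid from -0.0416 to 0.254, Got1 from -0.16 to 0.542, Got2 from -0.106 to 0.16, Gpt2 from -0.1 to 0.196, Glud1 from -0.129 to 0.184, Uroc1 from -0.0123 to 0.183, Gcsh from -0.0291 to 0.0464 and Csad from -0.602 to 0.0493. The median of the transaminase and glutamate dehydrogenase genes ran from -0.1 to 0.196 and that of the histidine genes from -0.0123 to 0.183.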

Other observations

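Control livers differed from each other more than knockout livers did. The ratio of the highest to the lowest library had a median of 1.39 in controls and 1.22 in knockouts over all tested genes. The widest control ratios among the 41 were those of Csad (2.79), Got1 (2.66) and Aldh4a1 (2.08). In knockouts Csad spread 2.30-fold, Got1 1.49-fold and Aldh4a1 1.06-fold. These ratios differ between groups of 3 libraries and were not tested.

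Within the glycine cleavage system, a pair of genes picked after their values were seen, the ratio of Gldc to Amt CPM was 2.85, 4.35 and 2.60 in controls and 4.63, 6.51 and 6.22 in knockouts. The groups did not overlap, which the choice of the pair favours. Dhtkd1, of the lysine and tryptophan path beyond aminoadipate and also picked after its values were seen, was at 41.9, 36.1 and 83.2 CPM in controls and 23.6, 25.1 and 27.7 in knockouts (-1.08 ± 0.28, log2 and SE, adjusted p of 0.0956 in edgeR). Gls2, the liver glutaminase, and Slc38a4, an amino acid transporter, likewise had groups that did not overlap, at 0.42 ± 0.14 and 0.52 ± 0.14 (adjusted p of 0.161 and 0.104 in edgeR). In the authors' deposited table Dhtkd1, Gls2 and Slc38a4 have q-values of 0.00729, 0.0666 and 0.00961.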
